A study of Mus musculus with 10 samples.

Results

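The peroxisome proliferator-activated receptors (PPARs) and the main coregulators that act with them were followed in liver RNA of mice lacking the orphan nuclear receptor TAK1, also called TR4, and of wild-type mice. The 8 genes were Ppara, Ppard and Pparg for the receptors, Ppargc1a, Ppargc1b, Ncoa1 and Ncoa2 for coactivators, and Ncor1 for a corepressor. Every probe of the array annotated to 1 of these genes, under its current or an older symbol, was taken, which gave 19 of 41174 non-control probes. A probe entered the test when 4 or more of the 5 arrays of either group showed it well above background, which held for 16 of the 19 probes, of 7 genes, and for 23266 probes of the whole array. In genes, this is 8 members, 7 of them testable, of 15809 testable genes. Another 3 probes carried the name Grip1, an older symbol of Ncoa2, but belonged by accession to a different gene and were left out.

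The knockout (KO) group held 5 samples from mice described as TAK1 KO, and the wild-type (WT) group held 5 samples from WT mice. Both groups were C57BL/6 mice aged 1 year, and both gave liver total RNA, which was read on 1-colour Agilent mouse arrays (Cy3 dye, 1 sample per array). TAK1 here is the receptor encoded by Nr2c2 and not the kinase of the same name. The labels give no sex, feeding state or treatment, do not say which part of Nr2c2 was removed or in which cells, and do not state that each array holds a separate mouse. The p-values therefore measure the spread between these samples, which may be technical in part.

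PPARs are nuclear receptors that bind fatty acids and their derivatives, pair with a retinoid X receptor (RXR) and sit on direct repeats of the sequence AGGTCA, an element that TAK1/TR4 also recognises. In liver, PPAR alpha is known for driving fatty acid oxidation during fasting, and PPAR gamma, the master regulator of fat cell formation, for promoting lipid storage when the liver becomes fatty. Coactivators of the PGC-1 and steroid receptor coactivator families are recruited when ligand is bound, and the corepressor NCoR1 holds a histone deacetylase complex on unliganded receptors.

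Levels are log2 of the background-subtracted signal relative to the 75th percentile of the same array, so a level of 0 equals that percentile. Differences are KO minus WT on that log2 scale, with the standard error of the limma fit, and a probe is said to have changed when its Benjamini-Hochberg adjusted p over all 23266 probes was under 0.05. Levels of different probes are not compared, since probes differ in brightness.

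The 75th percentile of signal was 1037 to 1350 on KO arrays and 952 to 1215 on WT arrays. Signal was well above background for 51.0% to 62.4% of the probes of an array. All 12 hepatocyte markers examined were above background, and none of them changed in the limma fit (2 at an unadjusted p under 0.05). In the Nr2c2 region of chromosome 6 (mm7), a probe for the transcript AK039370 at 92237812 to 92237871 was above background on 0 of 5 KO arrays and 5 of 5 WT arrays. That probe is annotated in the orientation opposite to Nr2c2. The 2 probes named Nr2c2 were above background on all 10 arrays and were not lower in KO livers (0.44 ± 0.11, adjusted p = 0.0419, and 0.36 ± 0.13, adjusted p = 0.148, limma). Whether they lie inside the removed part is not given, so they do not check the labels.

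Arrays are named by group and replicate number. WT1 to WT4 shared slide 1, WT5 and KO1 to KO3 shared slide 2, KO5 lay on slide 3 and KO4 on slide 4, which was scanned on a later day. Slide 2 was the only one that held both groups, and values within it are given for Pparg, Ppara, Ppargc1b, the target lists, Hdac3 and Prmt1. KO2 stood apart from the other arrays: its limma array weight, which is low for arrays that fit the group means poorly, was 0.271, against 0.658 to 1.28 on the other KO arrays and 1.16 to 2.43 on WT arrays. Among the hepatocyte markers examined, KO2 was the lowest of the 10 arrays for Tat, Cps1, Ttr, Trf and Asgr2. It was the highest for Hnf4a, and neither the lowest nor the highest for the other markers.

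Of the 16 tested probes, 2 changed, 1 of Pparg and 1 of Ppargc1b, both lower in KO livers, and 6 had an unadjusted p under 0.05, all lower in KO livers. Over all tested probes, 5.07% changed, 3.01% in the lower and 2.06% in the higher direction, and 23% had an unadjusted p under 0.05, 11.9% lower and 11.1% higher in KO livers. Every Ppargc1b probe was among the 6, so they are not separate genes. With 1 probe per gene, 4 of 7 members were lower and 0 higher at an unadjusted p under 0.05 (limma). Of all genes, 12.2% were lower and 11.6% higher. The 2 changed probes became 3 without KO1 or without KO2, when Ppara also passed, and 4 without WT1. Only Pparg passed when WT2, WT3, WT4, WT5, KO3, KO4 or KO5 was left out. Without any scaling between arrays the whole array shifted by a median of 0.12 and only Pparg passed. The split of all calls between higher and lower also depended on that choice, with 40.6% of changed probes higher in KO livers after scaling to the 75th percentile and 67.4% without scaling.

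**Figure D1:**
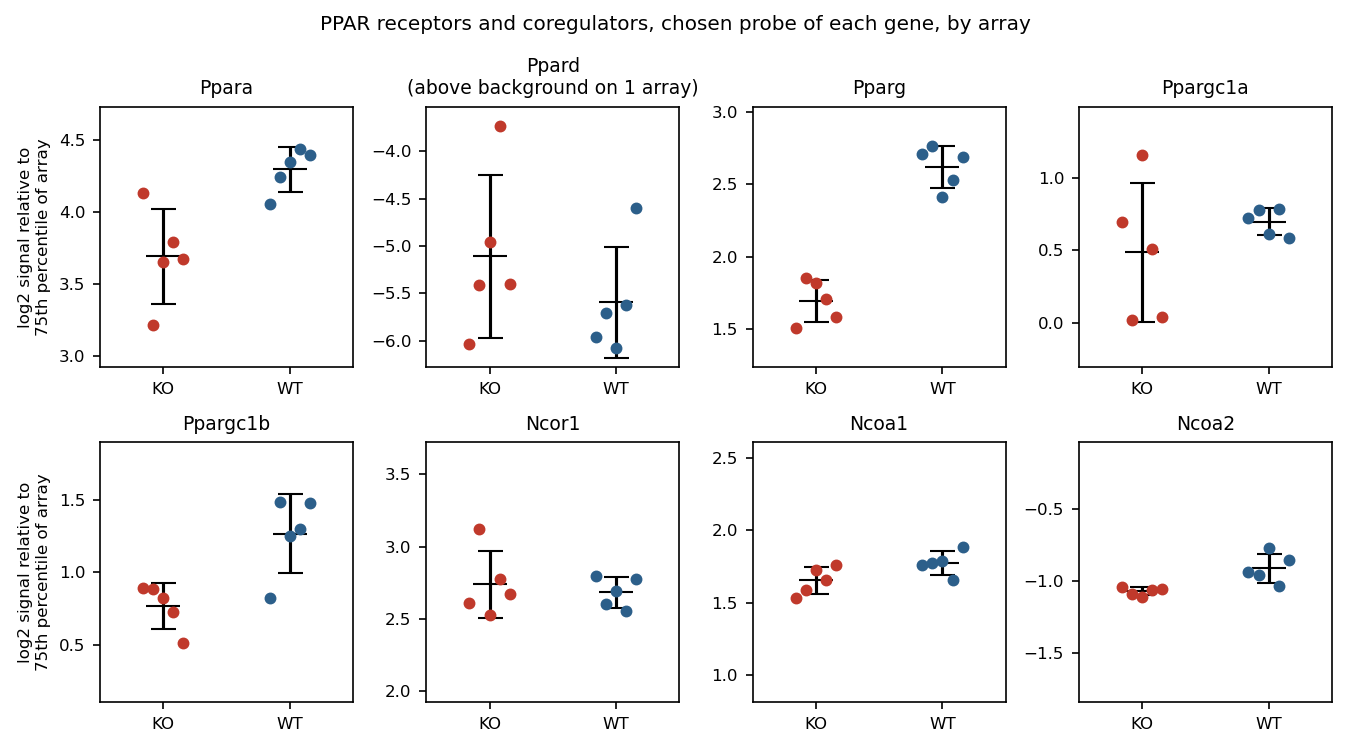
Log2 signal relative to the 75th percentile of the array (vertical axis, a separate range in each panel) for the brightest tested probe of each gene, with KO arrays left and WT arrays right; points are arrays and bars the mean ± SD over 5 arrays. The 5 KO arrays lie below the 5 WT arrays for Pparg, by a wide gap, and for Ncoa2, by a very narrow one; Ppara and Ppargc1b overlap by 1 WT array, and Ppargc1a is widely spread in KO livers; Ppard was above background on 1 array.

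Pparg, the receptor of fat storage, fell 1.90-fold in KO livers. Its probe lies on chromosome 6 at 115515909 to 115515968 (mm7) and was spotted 10 times per array. The KO levels were 1.51, 1.85, 1.82, 1.71 and 1.58 in KO1 to KO5, and the WT levels 2.71, 2.77, 2.41, 2.53 and 2.69 in WT1 to WT5. All KO arrays lay below all WT arrays, and the gap between the highest KO and the lowest WT array was wider than the whole range within either group. The replicate spots within an array had an SD of 0.0187 to 0.0733, below the SD of 0.15 between the arrays of either group. The means were 1.69 ± 0.15 in KO livers and 2.62 ± 0.15 in WT livers (SD, n = 5 each), a difference of -0.93 ± 0.10 (95% confidence interval -1.14 to -0.71, adjusted p = 0.00123 by limma). The exact two-sided permutation p was 0.0079, the smallest that 5 against 5 arrays allow. Among all tested probes with 10 values, 8.93% had groups that did not overlap.

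The Pparg difference held its call when any single array was left out, with values from -0.98 to -0.88, and was -0.97 without KO2. Within slide 2 it was -0.96 ± 0.25, from 3 KO arrays and 1 WT array. With slide as a fixed block it was -0.96 ± 0.20, which rests on the same contrast, since every other slide held only 1 group. Neither of these passed after adjustment (adjusted p = 0.9998 and 0.180, limma). In whole liver, a smaller number of cells expressing a gene and less RNA per cell cannot be told apart, for Pparg and for every gene below.

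Because Pparg changed, its start regions are shown with the AGGTCA element marked. RefSeq annotates 3 start regions for mouse Pparg (GRCm38.p6, plus strand), each taken from 250 bases before to 50 bases after the start. The pair below holds the motif AGGTCA, in capitals, once each on the strand shown, at positions -28 and -9 relative to the start.
Pparg start region chr6:115360894-115361193: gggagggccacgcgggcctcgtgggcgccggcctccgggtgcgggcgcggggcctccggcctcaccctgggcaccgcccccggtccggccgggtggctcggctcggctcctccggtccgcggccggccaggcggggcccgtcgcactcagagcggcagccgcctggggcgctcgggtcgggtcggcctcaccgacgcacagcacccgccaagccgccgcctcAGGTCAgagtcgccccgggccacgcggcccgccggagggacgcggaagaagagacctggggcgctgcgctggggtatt
Pparg start region chr6:115362099-115362398: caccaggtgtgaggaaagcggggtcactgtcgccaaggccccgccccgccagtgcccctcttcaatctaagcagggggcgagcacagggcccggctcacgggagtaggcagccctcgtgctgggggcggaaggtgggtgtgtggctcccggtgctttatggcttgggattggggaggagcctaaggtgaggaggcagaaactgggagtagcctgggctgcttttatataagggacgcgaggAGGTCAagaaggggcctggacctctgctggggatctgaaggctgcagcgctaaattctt
The remaining Pparg start region, chr6:115421816-115422115, holds no AGGTCA on either strand, and none of the 3 holds the spaced repeat AGGTCANAGGTCA. Of 32851 RefSeq mouse start regions of the same length, 16.26% hold AGGTCA and 13 hold the spaced repeat, searched on both strands. The start regions of Ppara, Ppard, Ppargc1a, Ncoa1 and the 2 of Ncor1 hold neither motif. No start region of Ppargc1b or Ncoa2 was available to search. A match of letters is a description and not a binding site, and the array does not resolve which Pparg start was used.

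Ppara, the receptor of fatty acid oxidation and the PPAR most associated with hepatocytes, was lower in KO livers by 0.60 on the log2 scale but did not pass the test, by a narrow margin. Its probe lies on chromosome 15 at 85883890 to 85883949 (mm7) and was also spotted 10 times. The KO levels were 4.13, 3.21, 3.65, 3.79 and 3.67 in KO1 to KO5, and the WT levels 4.05, 4.24, 4.34, 4.44 and 4.40 in WT1 to WT5. KO2 was the lowest array of all, and KO1, the highest KO array, lay just above WT1, so the groups overlapped by that pair. The means were 3.69 ± 0.33 in KO livers and 4.29 ± 0.15 in WT livers (SD, n = 5 each), with a difference of -0.60 ± 0.15 (95% confidence interval -0.94 to -0.26, adjusted p = 0.0506 by limma, exact permutation p = 0.0159). The adjusted p was 0.0195 without KO1, 0.0489 without KO2 and 0.112 without WT4. Spots of the Ppara probe within an array differed by an SD of 0.0170 to 0.0548, and the difference within slide 2 was -0.73 ± 0.41.

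Ppard, the most broadly expressed receptor of the family, could not be compared. Its probe on chromosome 17 (mm7) is shown because the single probe carries the whole measurement of this gene.
Ppard probe chr17:26486311-26486370: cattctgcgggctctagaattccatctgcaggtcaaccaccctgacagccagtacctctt
The Ppard probe was well above background on 1 of 5 KO arrays and 0 of 5 WT arrays. The KO levels were -6.04, -5.41, -4.96, -3.73 and -5.40 in KO1 to KO5, and the WT levels -5.96, -5.71, -6.08, -5.62 and -4.60 in WT1 to WT5. KO4, on the slide scanned later, was the array above background, and the groups overlapped. A signal this low bounds what the probe can show and does not mean that the gene was silent.

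**Figure D2:**
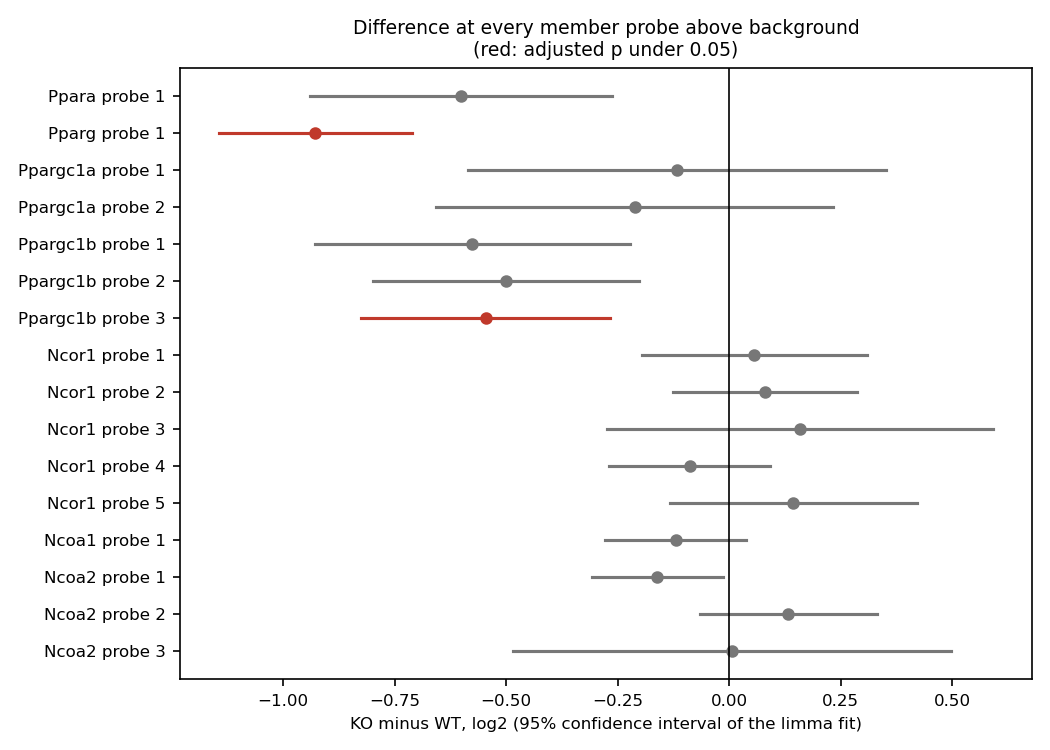
KO minus WT on the log2 scale (horizontal axis) with its 95% confidence interval from the limma fit for the 16 tested probes of 7 genes, numbered within a gene by position; red marks an adjusted p under 0.05. The probes of Pparg, Ppara and Ppargc1b lie left of 0 with intervals that do not reach it, as does the brightest Ncoa2 probe (-0.31 to -0.01, adjusted p = 0.185 by limma), and the Ncor1 intervals all cover 0.

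Ppargc1b encodes PGC-1 beta, a coactivator known for promoting mitochondrial gene expression and, in liver, lipid synthesis. It had 3 probes on chromosome 18 (mm7), and all 3 were lower in KO livers by about the same amount. The probe at 61692106 to 61692165 passed the test. Its KO levels were -0.50, -0.51, -0.61, -0.66 and -0.74 in KO1 to KO5, and its WT levels -0.47, 0.20, -0.20, 0.07 and 0.11 in WT1 to WT5. The groups did not overlap, as at 8.93% of tested probes with 10 values, but WT1 lay level with the KO arrays and far from the other WT arrays. The means were -0.60 ± 0.10 in KO livers and -0.06 ± 0.27 in WT livers (SD, n = 5 each), a difference of -0.55 ± 0.13 or 1.46-fold lower (95% confidence interval -0.83 to -0.27, adjusted p = 0.0370 by limma, exact permutation p = 0.0079).

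The brightest Ppargc1b probe, at 61688037 to 61688096, had KO levels of 0.89, 0.89, 0.82, 0.73 and 0.51 in KO1 to KO5 and WT levels of 0.82, 1.49, 1.25, 1.30 and 1.48 in WT1 to WT5. WT1 again lay among the KO arrays, and the other WT arrays lay above all of them. The difference was -0.50 ± 0.13 (95% confidence interval -0.80 to -0.20, adjusted p = 0.0604 by limma, exact permutation p = 0.0238). The remaining Ppargc1b probe, at 61685974 to 61686033, gave -0.58 ± 0.16 (adjusted p = 0.0674 by limma, exact permutation p = 0.0238), with KO levels from -0.30 to 0.33 and WT levels from 0.20 to 0.87. Here too WT1 was the lowest WT array.

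The Ppargc1b call was not stable when 1 array was left out, although the difference at the probe that passed stayed between -0.65 and -0.48. Without WT1 all 3 probes passed, with differences of -0.65, -0.61 and -0.68 in the order given. The call at 61692106 was lost when WT2, WT3, WT4, WT5, KO3, KO4 or KO5 was left out, with adjusted p from 0.0598 to 0.0952 (limma). Within slide 2 the 3 probes gave -0.65 ± 0.21, -0.61 ± 0.21 and -0.49 ± 0.21.

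Ppargc1a encodes PGC-1 alpha, the fasting-induced coactivator of gluconeogenesis and mitochondrial biogenesis. Its brightest probe lies on chromosome 5 at 50830839 to 50830898 (mm7). The KO levels were 0.70, 0.02, 1.16, 0.51 and 0.04 in KO1 to KO5, and the WT levels 0.72, 0.78, 0.61, 0.79 and 0.59 in WT1 to WT5. WT arrays lay close together, while KO3 lay above and KO2 and KO5 well below every WT array, with an SD of 0.48 in KO livers and 0.09 in WT livers. The mean difference of -0.21 ± 0.20 did not pass (95% confidence interval -0.66 to 0.23, adjusted p = 0.570 by limma, exact permutation p = 0.310).

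The other Ppargc1a probe, at 50828808 to 50828867, ordered the KO arrays in nearly the same way, with -1.52, -2.19, -1.02, -1.56 and -2.19 in KO1 to KO5 and -1.61, -1.49, -1.79, -1.50 and -1.52 in WT1 to WT5. KO3 was the highest and KO2 and KO5 the lowest arrays at both probes. The difference at this probe was -0.12 ± 0.21 (95% confidence interval -0.59 to 0.35, adjusted p = 0.778 by limma). Intervals of this width leave room for a change of either sign.

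**Figure D3:**
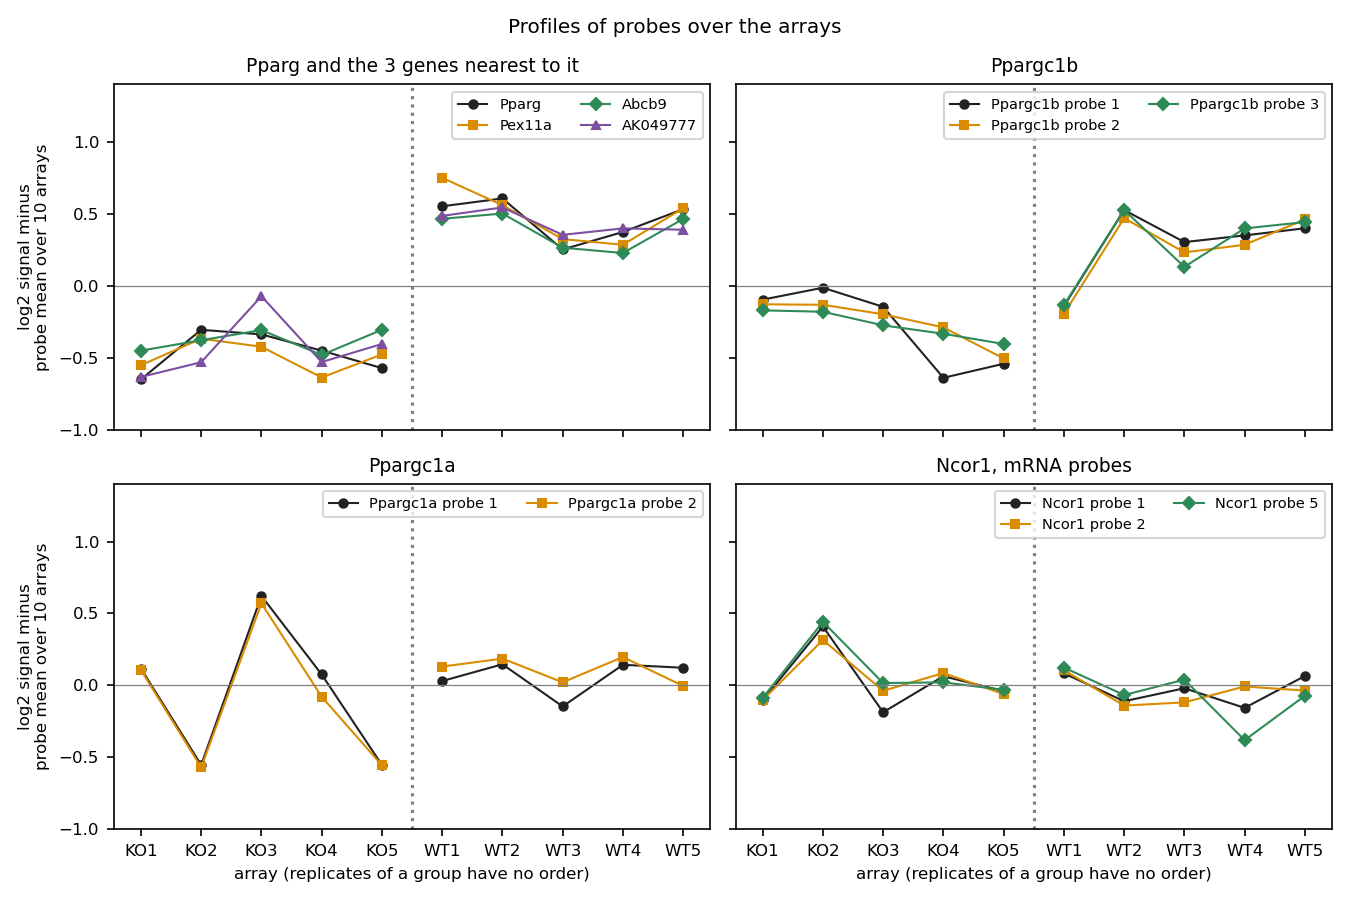
Level of each probe minus its own mean over the 10 arrays (vertical axis, log2) for each KO and WT array (horizontal axis), for Pparg with the 3 genes nearest to it and for the probes of Ppargc1b, Ppargc1a and Ncor1 mRNA; lines join the points of 1 probe and carry no order of replicates. Probes of the same gene move together, with WT1 low for Ppargc1b, KO3 high and KO2 and KO5 low for Ppargc1a, and KO2 high for Ncor1.

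Ncoa1, the steroid receptor coactivator SRC-1, had 1 probe on chromosome 12 at 4175903 to 4175962 (mm7). The KO levels were 1.53, 1.59, 1.73, 1.66 and 1.76 in KO1 to KO5, and the WT levels 1.76, 1.77, 1.79, 1.66 and 1.88 in WT1 to WT5. The groups overlapped, with a difference of -0.12 ± 0.07 (95% confidence interval -0.28 to 0.04, adjusted p = 0.346 by limma, exact permutation p = 0.0556). The interval does not reach the -0.93 found for Pparg.

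Ncoa2 encodes the related coactivator known as GRIP1 or TIF2 and had 3 probes on chromosome 1 (mm7). The brightest, at 13286151 to 13286210, had KO levels of -1.04, -1.09, -1.11, -1.06 and -1.06 in KO1 to KO5 and WT levels of -0.94, -0.96, -0.77, -1.03 and -0.85 in WT1 to WT5. The groups did not overlap, as at 8.93% of tested probes with 10 values, although KO1 and WT4 lay very close. The difference was -0.16 ± 0.07 (95% confidence interval -0.31 to -0.01, adjusted p = 0.185 by limma, exact permutation p = 0.0079). At 13288004 to 13288063 the difference had the other sign, 0.13 ± 0.09 (adjusted p = 0.408). At 13295361 to 13297001, above background on 4 of 5 KO and 4 of 5 WT arrays, it was 0.01 ± 0.22 (adjusted p = 0.993). The Ncoa2 probes thus gave no common direction.

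Ncor1 encodes the corepressor that scaffolds HDAC3 on nuclear receptors and had 7 probes on chromosome 11 (mm7), of which 5 were tested. The 3 probes designed on its RefSeq mRNA are shown, since they lie in the orientation of the gene and sample it at separate places.
Ncor1 probe chr11:62399540-62400934: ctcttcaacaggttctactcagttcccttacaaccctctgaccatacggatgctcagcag
Ncor1 probe chr11:62402705-62402764: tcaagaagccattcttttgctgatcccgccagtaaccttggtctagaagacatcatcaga
Ncor1 probe chr11:62501199-62501258: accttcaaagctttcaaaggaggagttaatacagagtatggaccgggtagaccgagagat
The first has 60 bases but a longer interval in the files' coordinates. Its KO levels were 2.61, 3.12, 2.52, 2.77 and 2.67 in KO1 to KO5, and its WT levels 2.79, 2.60, 2.69, 2.55 and 2.78 in WT1 to WT5. KO2 was the highest KO array at all 3 mRNA probes, at 3.12, 2.11 and 1.25, and the other KO arrays lay within or just below the WT range. The differences were 0.06 ± 0.11, 0.08 ± 0.09 and 0.14 ± 0.12 in the order shown, and none passed (adjusted p = 0.805, 0.652 and 0.531, limma). Their 95% confidence intervals ran from -0.20 to 0.31, from -0.13 to 0.29 and from -0.13 to 0.42. Without KO2 the differences were -0.04 ± 0.08, 0.01 ± 0.07 and 0.05 ± 0.10, and again none passed (adjusted p = 0.811, 0.949 and 0.805, limma).

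Another 4 probes are annotated to Ncor1 through cDNA clones. The one at 62483282 to 62483341, in the orientation of the gene, gave -0.09 ± 0.08 (adjusted p = 0.558, limma). The one at 62409085 to 62409144 lies in the opposite orientation and gave 0.16 ± 0.19 (adjusted p = 0.671, limma). The other pair, also in the opposite orientation, was not tested. The probe at 62406517 was above background on 3 of 5 KO and 3 of 5 WT arrays, and the probe at 62407826 on 2 of 5 KO and 3 of 5 WT arrays.

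The members did not all differ by the same amount, and 4 pairs were compared through the log2 ratio of their brightest probes within each array. The Pparg to Ppargc1a ratio differed by -0.72 between KO and WT livers, with an exact permutation p of 0.0238 that became 0.0952 after adjustment over the 4 pairs. The Pparg to Ppara ratio differed by -0.33 (p = 0.198, adjusted 0.262, exact permutation). The Ppara to Ppargc1a ratio differed by -0.39 (p = 0.0714, adjusted 0.143, exact permutation), and the Ppargc1b to Ppargc1a ratio by -0.29 (p = 0.262, adjusted 0.262, exact permutation). So a larger difference of Pparg than of Ppara or Ppargc1a was not shown after adjustment.

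KO arrays varied more than WT arrays at most tested probes, of the members and of the whole array alike. The SD over KO arrays exceeded that over WT arrays at 13 of 16 tested member probes (81.25%), with medians of 0.19 in KO livers and 0.14 in WT livers. Over 23169 tested probes with 10 values the same held for 77.8%, with medians of 0.23 in KO livers and 0.14 in WT livers. WT1 to WT4 shared slide 1, while the KO arrays lay on slides 2, 3 and 4, with KO4 scanned on a later day. Spread by genotype therefore cannot be told apart from spread by slide or scan day.

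The genes whose expression these receptors are known to control were examined next. Of 36 PPAR alpha target genes, all were tested, 16 fell and 0 rose, against 3.29% of 15809 genes lower and 2.23% higher when each gene was read from its brightest probe. At an unadjusted p under 0.05, 23 were lower and 0 higher in KO livers, against 12.2% of all genes lower and 11.6% higher. The median difference was -0.43, 34 of the 36 had a negative sign, and the median over all tested probes was 0.01. Their mean level per array was 3.78 to 4.28 in KO livers and 4.48 to 4.75 in WT livers.

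Among the PPAR alpha targets that fell, Pex11a, a peroxisome division gene, differed by -0.98 ± 0.10 (adjusted p = 0.00116, limma). Aldh3a2, the fatty aldehyde dehydrogenase gene, differed by -1.002 ± 0.11 (adjusted p = 0.00131). Slc25a20, the mitochondrial carnitine and acylcarnitine carrier, differed by -0.46 ± 0.07 (adjusted p = 0.00782), and Crat, carnitine acetyltransferase, by -1.04 ± 0.16 (adjusted p = 0.00828). The count of 16 was 18 without KO2, 5 to 8 when KO4, KO5 or any 1 WT array was left out, and 5 without scaling between arrays. Within slide 2 the median was -0.51 with 0 calls and 6 genes lower at an unadjusted p under 0.05.

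Of 20 PPAR gamma target genes, 16 were tested, 7 fell and 0 rose. At an unadjusted p under 0.05, 8 were lower and 1 higher in KO livers, against 12.2% of all genes lower and 11.6% higher. The median was -0.37, with 14 of 16 negative, and the mean level per array was 1.88 to 2.62 in KO livers and 3.86 to 4.41 in WT livers. The 4 targets with the smallest p act in lipid storage or are products of fat cells. Cidea, which enlarges lipid droplets, fell by 8.78 ± 0.74 on the log2 scale (adjusted p = 0.000460, limma). Its levels were -0.39, -0.05, -2.52, -3.25 and -3.89 in KO1 to KO5, and 7.05, 7.47, 6.05, 5.94 and 7.31 in WT1 to WT5. Cidec, another lipid droplet protein gene, fell by 4.85 ± 0.53 (adjusted p = 0.00156). Mogat1, which makes diacylglycerol, fell by 3.64 ± 0.28 (adjusted p = 0.000469), with the WT5 value missing as an outlier spot. Cfd, which encodes the adipokine adipsin, fell by 5.72 ± 0.76 (adjusted p = 0.00396).

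The differences of these 4 targets ran from -8.78 to -3.64, against -0.93 for Pparg. Lpl, lipoprotein lipase, had the opposite sign at 0.86 ± 0.30 without passing (adjusted p = 0.131, limma), and was chosen after its value was seen. Within slide 2 the median over 15 of these targets was -0.73, with 0 calls and 6 lower at an unadjusted p under 0.05. The target lists were chosen with earlier results of these data known and are no independent evidence of direction.

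**Figure D4:**
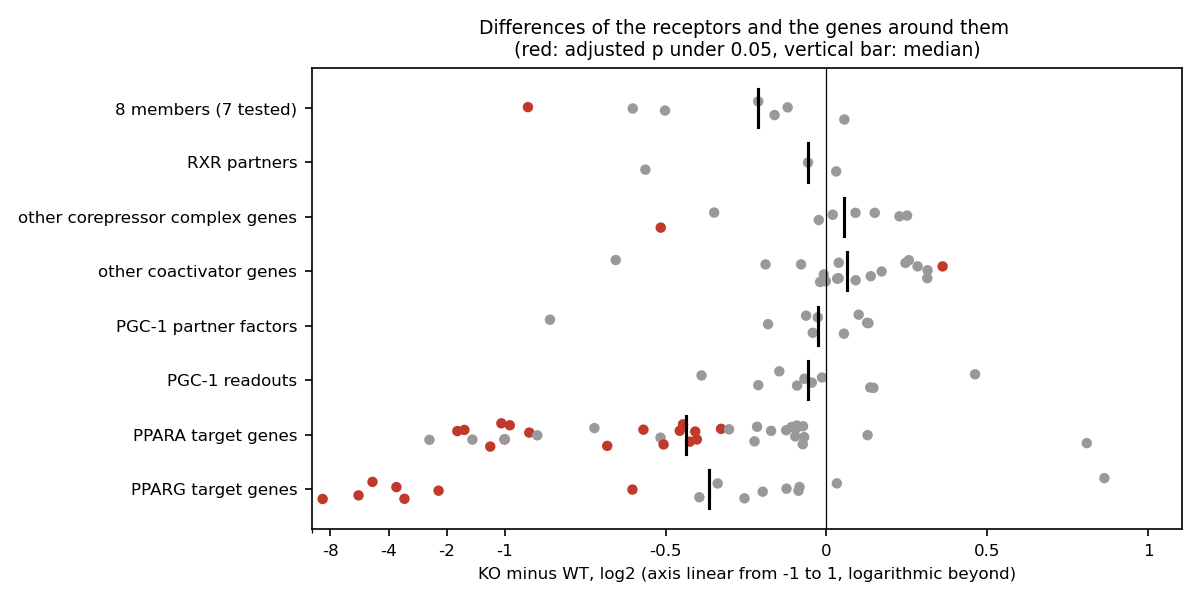
KO minus WT on the log2 scale (horizontal axis, linear between -1 and 1 and logarithmic beyond) for the tested genes of each list, 1 point per gene read from its brightest probe; red marks an adjusted p under 0.05 and the vertical bar the median of the list. The targets of PPAR alpha and PPAR gamma have medians of -0.43 and -0.37, and the partner and cofactor lists have medians near 0.

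The partners and cofactors of the members were read in the same way, beside the same shares of all genes. Those were 3.29% fallen and 2.23% risen, with 12.2% lower and 11.6% higher at an unadjusted p under 0.05 (limma). Of the 3 RXR genes 0 changed, with a median of -0.06, and 1 was lower at an unadjusted p under 0.05 (limma). It was Rxrg, at -0.56 ± 0.16 (adjusted p = 0.0719). Of 9 transcription factors that PGC-1 proteins coactivate 0 changed, with a median of -0.03, and again 1 was lower at an unadjusted p under 0.05, the estrogen-related receptor gene Esrrg, at -0.86 ± 0.25 (adjusted p = 0.0819). Of 10 tested PGC-1 readouts, Ppargc1a among them, 0 changed, with a median of -0.06, and 1 was higher at an unadjusted p under 0.05. That was Pck1, the gluconeogenic enzyme gene, at 0.46 ± 0.13 (adjusted p = 0.0647).

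Of 8 other corepressor complex genes, 1 fell, 0 rose and the median was 0.06, with 2 lower and 0 higher at an unadjusted p under 0.05 (limma). The gene was Hdac3, the deacetylase that NCoR1 activates, at 1.36, 0.99, 1.15, 0.96 and 1.13 in KO1 to KO5 and 1.67, 1.69, 1.60, 1.59 and 1.59 in WT1 to WT5. All KO arrays lay below all WT arrays, and the groups did not overlap at 8.93% of tested probes with 10 values. The difference was -0.52 ± 0.08 or 1.43-fold lower (adjusted p = 0.0110, limma). The Hdac3 call was lost without scaling (-0.41, adjusted p = 0.177), with dim probes kept (adjusted p = 0.0507), with slide as a fixed block (-0.43 ± 0.17, adjusted p = 0.483) and within slide 2 (-0.43 ± 0.25, adjusted p = 0.9998).

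Of 18 tested other coactivator genes, 1 rose, 0 fell and the median was 0.06, with 2 higher and 1 lower at an unadjusted p under 0.05 (limma). The gene was Prmt1, an arginine methyltransferase that acts as a coactivator, at 2.34, 2.43, 2.17, 2.40 and 2.41 in KO1 to KO5 and 2.08, 2.04, 2.03, 1.94 and 1.86 in WT1 to WT5. Again the groups did not overlap, as at 8.93% of tested probes with 10 values. The difference was 0.36 ± 0.08 or 1.28-fold higher (adjusted p = 0.0274, limma). The Prmt1 call was lost when WT2, WT3, WT4, WT5, KO4 or KO5 was left out, with an adjusted p of at most 0.0698, without scaling (adjusted p = 0.0844) and with dim probes kept (adjusted p = 0.112). It was also lost with slide as a fixed block (0.46 ± 0.15, adjusted p = 0.369, limma) and within slide 2 (0.46 ± 0.23, adjusted p = 0.9998).

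The nearest profile to Pparg over the 10 arrays, among tested genes that are not members, was that of Pex11a. Likeness was the root mean square difference between mean-centred log2 profiles, which was 0.109 for Pex11a, 0.128 for Abcb9 and 0.140 for the unnamed transcript AK049777. Pparg's own root mean square deviation was 0.482. Abcb9, a transporter gene, differed by -0.77 ± 0.08 (adjusted p = 0.00120) and AK049777 by -0.87 ± 0.11 (adjusted p = 0.00239). This likeness is a description over 10 arrays that fall into the KO and WT groups.

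Levels of other cell types were read from marker lists, since Pparg is also expressed in macrophages and fat cells and Ppara mainly in hepatocytes. Over all genes 2.23% rose and 3.29% fell, with 11.6% higher and 12.2% lower at an unadjusted p under 0.05 (limma). With all arrays 2581 of 23266 tested probes were higher unadjusted. That count was 2929 without KO1, 2216 without WT1, 1980 without WT2, 2480 without KO3 and 2315 without KO4. Of 12 macrophage markers 1 rose, Cd163, and 0 fell (2 higher and 0 lower at an unadjusted p under 0.05, but 7 higher and 0 lower without KO1), with a median of 0.35. Their summed signal, in multiples of the 75th percentile, was 64.2 to 160 in KO livers and 70.8 to 146 in WT livers. Of 12 endothelial markers 3 rose, Flt4, Dnase1l3 and Fcgr2b, and 0 fell (9 higher and 0 lower unadjusted), with a median of 0.41. Their summed signal was 38.0 to 58.5 in KO livers and 24.0 to 33.8 in WT livers, without overlap. Of 12 stellate cell markers 1 rose, Bgn, and 0 fell (4 higher and 0 lower unadjusted, but 1 higher without WT1 or KO3 and 2 higher without WT2 or KO4), with a median of 0.14 and a summed signal of 76.6 to 91.6 in KO livers and 68.8 to 87.3 in WT livers. For the 12 hepatocyte markers the median was -0.06 and the summed signal 1755 to 2251 in KO livers and 1952 to 2169 in WT livers.

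Of 12 fat cell markers 5 were tested, 2 fell, Cidea and Cfd, and 0 rose (4 lower and 0 higher unadjusted), with a median of -0.93. Over all genes 3.29% fell and 12.2% were lower unadjusted. The summed signal of the 5 was 42.0 to 196 in KO livers and 299 to 460 in WT livers. Most of the KO sum came from Car3, at 5.08 to 7.58 on KO arrays and 7.61 to 8.07 on WT arrays. Car3 did not change (-0.93 ± 0.42, adjusted p = 0.216, limma). Most of the rest of the WT sum came from Cidea, so the sum is no measure of the 5 markers alike. Of the 5, Cidea, Cfd and Fabp4 are also PPAR gamma targets. The defining markers Adipoq and Lep, with Adrb3 and Nnat, were above background on no array of either group, and Plin1 and Tshr each on 1 KO array. Retn was above background on 0 KO arrays and 3 WT arrays. The part of any of these cell types in the differences of the members was not tested.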

How the data were processed

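The deposited files hold 1-colour Agilent scanner intensity values, made by the authors with version 9.5.1.1 of Agilent's Feature Extraction program, per the file headers (9.5 in the submitters' processing notes). The intensity values are background-subtracted within each array per the file headers, and the deposited series table repeats them. Probe coordinates are mm7 per the file headers. RefSeq tables of GRCm38.p6 gave gene names (22944 probes matched by accession, 6664 by current and 3108 by older symbol, 8458 kept the deposited name) and start regions, with no coordinates carried between builds.

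Here log2 was taken of the deposited values without a pseudocount, outlier spots were removed, each array's 75th percentile over non-control spots was subtracted, and replicate spots were averaged. Probes that 4 or more of the 5 arrays of either group showed well above background were tested with lmFit and eBayes (limma 3.58.1, R 4.3.3), with genotype alone in the model and Benjamini-Hochberg adjustment over 23266 probes. Permutation tests were exact and two-sided. Genes were read from their brightest tested probe. The members, gene lists, tests and alternatives were chosen with earlier results of these data known. The genes named are all members, up to 4 changed genes per direction and list or otherwise the one with the smallest p, the probes at Nr2c2 and the 3 profiles nearest to Pparg.

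The number of arrays limits the precision. Simulated arrays of 23266 probes took their means and spreads from these data. On them the test recovered 44% of the probes given a log2 change of 0.5. It recovered 80% at a change of 1 and 96% at a change of 2, with 7 false calls among 165. KO arrays varied more, with a median SD of 0.23 against 0.14 in WT livers over 23169 tested probes. The simulation gave a probe the same spread in both groups, with no slide effect and no array like KO2. Recovery and false calls could therefore differ in these data. Same-numbered KO and WT arrays did not deviate together (correlations of -0.20 to 0.05). The values thus gave no sign that the numbers pair them, though a small shared effect could be missed.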

Additional observations from a re-analysis of the deposited data

Results flagged for a closer look

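At the Ncor1 mRNA probe on chromosome 11 at 62501199 to 62501258 (mm7), KO2 had a level of 1.25, while the other KO arrays lay between 0.72 and 0.83. The distance of KO2 from the nearest other KO array was 79.5% of the whole KO range. Among 38 sets of 5 arrays examined in this way (19 probes in each group) it was the only such case. Chance gives about 1 in 20, so the number of cases was no larger than chance gives. KO2 was also the highest KO array at the other 2 Ncor1 mRNA probes. KO2 had the lowest array weight of the 10 arrays. Without KO2 the KO minus WT difference at this probe was 0.05 ± 0.10, against 0.14 ± 0.12 with all arrays.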

How the results depend on the processing

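With 22 alternatives, no difference of a member that passed in any of them changed sign. Differences that never passed did change sign at some probes. The brightest Ppargc1a probe ran from -0.38 to 0.04. The Ncor1 probe at 62409085 ran from -0.48 to 0.27 and the Ncoa2 probe at 13295361 from -0.34 to 0.15. Pparg kept its call in 20. It was -0.96 with slide as a fixed block (adjusted p = 0.180) and within slide 2 (0.9998). Ppara passed in 7: -0.55 with normexp and quantile normalisation, -0.60 with probes above background on all 10 arrays, -0.60 with 1 probe per gene, -0.59 with slide as a random block, -0.55 with array weights, and without KO1 or KO2. Leaving out 1 array gave -0.71 to -0.48 for Ppara. The brightest Ppargc1b probe passed at -0.47 with slide as a random block, -0.60 with array weights and without WT1. Leaving out 1 array gave -0.61 to -0.44 for it, and all 22 alternatives -0.61 to -0.39.

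The changed probes numbered 1180, and 602 without scaling, 297 without the filter on dim probes, 46 with the fixed and 1878 with the random slide block, 2 within slide 2 (2 higher, 0 lower) and 221 with the replicate block. Leaving out 1 array gave 344 to 1579, with the lowest value without WT2 and values of 515, 644, 536, 543, 662 and 601 without WT1, WT3, WT4, WT5, KO4 and KO5. Members with a changed probe numbered 2, and 1 without scaling, 1 without the filter, 1 with the replicate block, 0 with the fixed slide block (4 probes at an unadjusted p under 0.05, limma) and 0 within slide 2 (3 probes), or 1 to 3 without 1 array. PPAR alpha targets that fell numbered 16, and 5 without scaling, 4 without the filter, 4 with the replicate block, 0 with the fixed slide block (15 unadjusted) and 0 within slide 2 (6 unadjusted). Without 1 array they numbered 5 to 18, with 8, 5, 7, 6 and 6 without WT1 to WT5 and 6 and 7 without KO4 and KO5. PPAR gamma targets that fell numbered 7, and 2 with the fixed slide block, 0 within slide 2 (6 unadjusted) and 6 to 8 without 1 array. The causes were not tested. The fixed block and slide 2 rest on the same contrast with 1 WT array and are not separate checks. The median standard error was 0.22 and 0.27 there, against 0.12. The replicate block kept the Pparg call (adjusted p = 0.0289, limma) and lost those of Ppargc1b (0.124), Hdac3 (0.0691) and Prmt1 (0.125). The numbers were not shown to pair the arrays.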

Other observations

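The genes in the next sentences were chosen after their values were seen. Among the other PPAR alpha targets that fell were Vnn1, a pantetheinase gene, at -1.76 ± 0.41 (adjusted p = 0.0380, limma), and Cyp4a31, a fatty acid omega-hydroxylase gene, at -1.62 ± 0.35 (adjusted p = 0.0314). The peroxisomal beta-oxidation genes Ehhadh and Acaa1a fell, with Ehhadh at -0.92 ± 0.19 (adjusted p = 0.0278) and Acaa1a at -0.33 ± 0.08 (adjusted p = 0.0401). The mitochondrial gene Acadm, medium-chain acyl-CoA dehydrogenase, fell by 0.41 ± 0.09 (adjusted p = 0.0289). Other well-known targets gave small differences that did not pass. Cpt1a, the carnitine palmitoyltransferase gene of the outer mitochondrial membrane, was at -0.09 ± 0.07 (95% confidence interval -0.25 to 0.07, adjusted p = 0.469), and Fabp1, the liver fatty acid binding protein gene, at -0.07 ± 0.10 (-0.30 to 0.15, adjusted p = 0.705).

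Among the other PPAR gamma targets that fell were Plin4, a lipid droplet coat gene, at -3.31 ± 0.47 (adjusted p = 0.00533, limma), and Cd36, a fatty acid transporter gene, at -2.20 ± 0.37 (adjusted p = 0.0119). For Fgf21, a hormone gene and PPAR alpha target, the KO2 array was at 5.15, against -0.97 to 1.70 on the other KO arrays and -0.45 to 1.52 on WT arrays.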
